A study of Mus musculus with 9 samples.

Results

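Glycolysis and glycogen metabolism were followed through 33 gene symbols, taken by name from the deposited tables, which list 34 gene loci for them among 55536. The extra locus is a second one under the symbol Aldoa. All 34 loci passed the filter on low counts, which left 14384 genes for testing. The tissue was muscle of male ICR mice, an outbred stock, and the labels do not say which muscle. Young vehicle mice were 2 months old (libraries 2, 3 and 4) and aged vehicle mice were 18 months old (libraries 1, 3 and 4). Aged GW8510 mice were 18 months old and received GW8510, a benzenesulfonamide per the series title, by intraperitoneal injection at 2 mg/kg once a day for 14 days (libraries 1, 3 and 4). The solvent was 0.5% sodium carboxymethylcellulose. Whether the libraries are from different animals is not stated in the labels. P-values therefore set group differences against the spread of these libraries only.

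Muscle fibres break glucose, or glucose units released from stored glycogen, down to pyruvate and lactate, and fast fibres rely on this route for short bursts of work. Glycogen is built by glycogen synthase and branching enzyme and taken apart by glycogen phosphorylase, which phosphorylase kinase switches on. Targeting subunits of protein phosphatase 1 hold the phosphatase on the glycogen particle, where it activates the synthase and turns off phosphorylase. Several steps have a muscle isoform and a form that other cells use.

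Library totals ran from 21718930 to 27437937 counts. The 8 skeletal muscle fibre markers other than the slow fibre genes Myh7 and Tnnt1 were at 1015 CPM or more in every library, and Myh7 and Tnnt1 at 28.1 CPM or less. Fast fibre markers summed to between 109916 and 181818 CPM (counts scaled to the library total after TMM, a correction for library composition). By group the sums were 141366 to 181818 CPM in young vehicle, 109916 to 155380 in aged vehicle and 111881 to 147649 in aged GW8510 libraries. The groups overlapped, and the sum was lowest in aged vehicle library 4. Aged vehicle library 4 stood apart: its log2 CPM correlated at 0.945 and 0.940 with the other libraries of its group, which correlated at 0.972 with each other. Of the 34 loci, 15 were lowest in it, 44.1% against 24.2% of all genes, and 7 were highest in it, 20.6% against 23.2%. The 8 fibroblast markers summed to 995 to 2058 CPM in young vehicle, 139 to 516 in aged vehicle and 283 to 586 in aged GW8510 libraries. In bulk tissue, fewer cells of a type and less RNA per cell cannot be told apart.

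Measured per gene length, in TPM (transcripts scaled by gene length and library total), the set spanned a very wide range of levels. Aldoa, which encodes aldolase A, the enzyme that splits fructose bisphosphate, averaged 20918 TPM over the 9 libraries and ranked 9 among all genes. Gapdh, the glyceraldehyde-3-phosphate dehydrogenase gene, followed with 5580.1 TPM, Eno3 (muscle enolase) with 4440 TPM, Pgam2 (muscle phosphoglycerate mutase) with 3762 TPM and Pygm (muscle glycogen phosphorylase) with 2976 TPM. The lowest was Pgm2, a phosphoglucomutase family gene, with 1.54 TPM. Together the 34 loci held 5.39% ± 0.24 of all TPM in young vehicle, 4.79% ± 0.14 in aged vehicle and 4.46% ± 0.63 in aged GW8510 libraries (SD, n = 3 each). Young vehicle libraries, at 5.16% to 5.63%, lay above all aged vehicle libraries, at 4.68% to 4.94%. The aged GW8510 libraries reached from 3.95% to 5.17% and overlapped both other groups. These shares depend on the rest of the transcriptome and were not tested.

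The first comparison asked which of these transcripts change in muscle between 2 and 18 months of age under vehicle. None of the 34 loci passed an adjusted p of 0.05 (edgeR quasi-likelihood test, Benjamini-Hochberg adjustment over all genes tested), where 1.22% of all genes did (0.521% as higher and 0.695% as lower). At an unadjusted p under 0.05 there were 8 loci, 23.5% against 19.2% of all genes. limma-voom called none, and DESeq2 called Gbe1, Ppp1r3c and Ugp2. Of all 14384 genes, limma-voom called 156 and DESeq2 called 974. In all, 15 loci had a log2 fold change above 0 and 19 below 0, with a median of -0.21 against 0.01 over all genes. For 9 loci the libraries of the groups did not overlap (3 higher, 6 lower in aged mice), 26.5% against 26.2% of all genes. These shares lie near the background. The 95% interval of the log2 fold change lay within 1 unit of 0 for 14 of the 34 loci. Leaving out aged vehicle library 4 turned the sign of 4 loci (Fbp2, Gaa, Gpi1 and Phka1) and moved 18 others by over 1.5 times.

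The second comparison asked what GW8510 changed in 18-month mice. No gene of the 14384 passed in edgeR, so percent called was 0, and 0 of the 34 loci passed. limma-voom and DESeq2 also called none of the 34, where they called 0 and 10 of all genes. Hk1 and Pgam1 had an unadjusted p under 0.05, which is 5.88% of the loci against 4.5% of all genes. No locus had libraries that were separate between the groups, against 7.22% of all genes (3.89% higher and 3.33% lower). The median log2 fold change was 0.03, with 19 loci above 0 and 15 below. For 23 loci the 95% interval of the difference lay within 1 log2 unit of 0, and for the other 11 a 2-fold difference lies inside it. When aged vehicle library 4 was left out, 16 loci changed sign in this comparison and 12 others moved by over 1.5 times.

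The third comparison set aged GW8510 against young vehicle mice. One gene fell: Ppp1r3c, 1 of 34 loci or 2.94%, where 0.751% of all genes passed, 0.334% as higher and 0.417% as lower (edgeR). limma-voom called the same gene, and DESeq2 called it with Gbe1, Hk2, Ldhb and Pfkfb1. Of all 14384 genes, limma-voom called 105 and DESeq2 called 870. An unadjusted p under 0.05 was found for 6 loci, 17.6% against 16.7% of all genes (edgeR). Altogether 14 loci were above 0 and 20 below, with a median log2 fold change of -0.11 against 0.01 over all genes. Libraries did not overlap for 13 loci (6 higher and 7 lower), 38.2% against 25.7% of all genes. This comparison shares the young libraries with the age comparison and the treated libraries with the drug comparison, so the 3 sets of values are not independent.

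**Figure D1:**
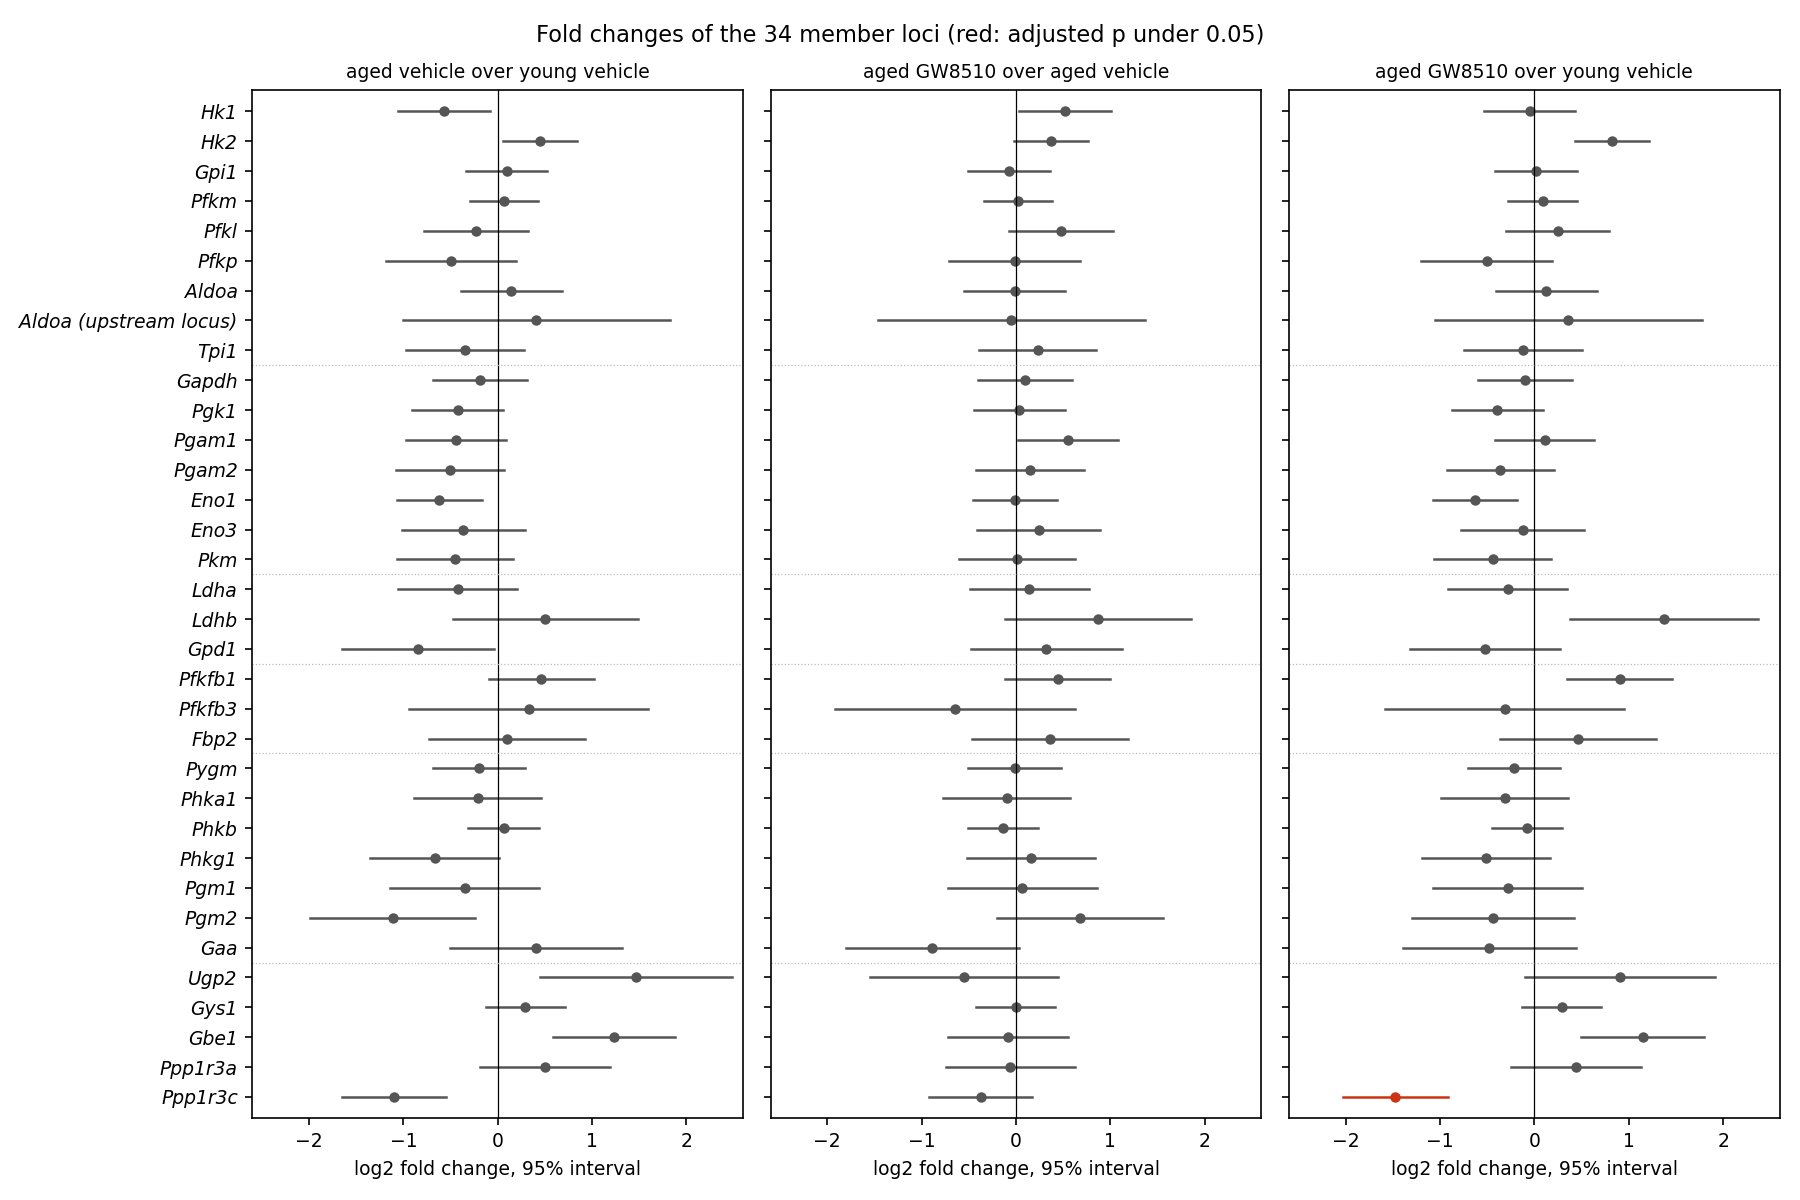
Log2 fold change (dot) and 95% interval (line) from edgeR for the 34 loci in 3 comparisons, with dotted lines between role groups and red where the adjusted p is under 0.05. The interval of Ppp1r3c in aged GW8510 over young vehicle is the 1 red line. Most lines cross 0 in each comparison: 8 with age, 2 with the drug and 6 in aged GW8510 over young vehicle do not.

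Glycogen synthesis and its phosphatase subunits held the 3 loci with the smallest p in the age comparison. Ppp1r3c encodes a glycogen-targeting subunit of protein phosphatase 1 (PTG). The gene lies on chromosome 19 from 36731731 to 36736653, minus strand (GRCm38, GENCODE M21). In young vehicle libraries 2, 3 and 4 its level was 618, 691 and 783 CPM. Aged vehicle libraries 1, 3 and 4 had 242, 319 and 415 CPM, and aged GW8510 libraries 1, 3 and 4 had 299, 181 and 273 CPM. Every library of 18-month mice lay below every young library, while the aged groups overlapped each other.

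Against young mice Ppp1r3c fell 2.78-fold in aged GW8510 mice (log2 fold change -1.47, SE 0.25, 95% interval -2.03 to -0.92, edgeR adjusted p = 0.0295). The age comparison gave -1.10 (SE 0.25, edgeR adjusted p = 0.0687), which did not pass, and the drug comparison gave -0.37 (SE 0.25, edgeR adjusted p = 0.934). The call in aged GW8510 against young mice was lost when any of the 3 young vehicle or 3 aged GW8510 libraries was left out, with edgeR adjusted p from 0.0546 to 0.120. Without any 1 aged vehicle library it was kept, at 0.00793 to 0.0400. The log2 fold change stayed between -1.62 and -1.28 over 18 alternative analyses. Without aged vehicle library 4 the age difference was -1.32 and passed (edgeR adjusted p = 0.0394, range over alternatives 0.00114 to 0.269).

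The bases upstream of Ppp1r3c are shown with those of Gbe1 and Hk2, the other members with an edgeR adjusted p under 0.1 in a comparison. They come from RefSeq (GRCm38.p6) windows of 250 bases that end at the base before the start site. Capitals mark ACGTG or its reverse complement CACGT, a core shared by the HIF response element and by the E-box CACGTG, to which the glucose-sensing MondoA and ChREBP factors and others bind. Of the 33 symbols, 32 had a window in the RefSeq table, and Gpd1 had none. The Ppp1r3c window is chr19:36736654-36736854 on the minus strand, printed without its last 49 bases, which lie inside the GENCODE gene. The Gbe1 window is chr16:70313699-70313948 on the plus strand and the Hk2 window chr6:82774455-82774704 on the minus strand.
Ppp1r3c: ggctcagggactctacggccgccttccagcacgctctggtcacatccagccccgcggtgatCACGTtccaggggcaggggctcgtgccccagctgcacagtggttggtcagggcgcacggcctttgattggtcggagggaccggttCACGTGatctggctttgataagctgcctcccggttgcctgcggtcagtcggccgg
Gbe1: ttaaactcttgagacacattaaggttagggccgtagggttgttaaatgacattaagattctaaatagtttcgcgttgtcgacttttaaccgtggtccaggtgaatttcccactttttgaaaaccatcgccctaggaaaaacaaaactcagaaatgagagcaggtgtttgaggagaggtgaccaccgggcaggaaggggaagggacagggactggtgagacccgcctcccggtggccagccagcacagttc
Hk2: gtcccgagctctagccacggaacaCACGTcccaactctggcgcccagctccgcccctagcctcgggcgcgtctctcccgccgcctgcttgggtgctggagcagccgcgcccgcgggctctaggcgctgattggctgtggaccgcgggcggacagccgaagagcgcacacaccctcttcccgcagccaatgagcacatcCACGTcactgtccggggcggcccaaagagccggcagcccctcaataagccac

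The Ppp1r3c window held 3 matches to ACGTG on either strand, of which 2 overlap in a single CACGTG that begins 104 bases before the start. The Hk2 window held 2 matches, and the Gbe1 window none. ACGTG or its complement was found in 16.6% of 32851 RefSeq windows of this length and in 18 of the 47 windows of the members, since a gene can have several. CACGTG was in 6.02% of all windows and 6 of the 47. GGGCGG, the GC box, was in 32.7% of all windows and 21 of the 47, and the Hk2 window held 3 matches. A match describes letters only.

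Gbe1, the glycogen branching enzyme gene, was at 47.8, 45.4 and 39.2 CPM in young vehicle libraries 2, 3 and 4. Its level was 61.6, 107 and 142 CPM in aged vehicle libraries and 74.4, 123 and 95.7 CPM in aged GW8510 libraries. All 6 libraries of 18-month mice lay above the young ones. The log2 fold change was 1.23 with age (SE 0.29, edgeR adjusted p = 0.0771) and 1.15 in aged GW8510 over young mice (SE 0.29, edgeR adjusted p = 0.0916), so neither passed. Without aged vehicle library 1 the age difference passed (edgeR adjusted p = 0.0450, leave-one-out range to 0.214), and without aged vehicle library 4 the difference from young mice in aged GW8510 mice passed (1.14, edgeR adjusted p = 0.0328, leave-one-out range to 0.294). Between the aged groups the difference was -0.09 (SE 0.29).

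Ugp2 makes UDP-glucose, the substrate of glycogen synthase. Its level was 399, 393 and 437 CPM in young vehicle libraries. Aged vehicle libraries 1 and 3 had 545 and 636 CPM and library 4 had 2208 CPM. Aged GW8510 libraries had 741, 845 and 721 CPM. Aged libraries lay above young ones in both groups, and the aged vehicle mean was set by a single library: the log2 fold change with age was 1.46 (edgeR adjusted p = 0.142) and 0.53 without aged vehicle library 4. In aged GW8510 over young mice it was 0.91 (SE 0.45, edgeR adjusted p = 0.343), and without aged vehicle library 4, which also enters the shared estimate of spread, it was 0.90 and passed (edgeR adjusted p = 0.00921, leave-one-out range to 0.600). The drug difference, -0.55 with that library, was 0.37 without it.

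Gys1, the muscle glycogen synthase gene, was at 351 ± 10.3 CPM in young vehicle, 429 ± 105 in aged vehicle and 428 ± 33.3 in aged GW8510 libraries (SD, n = 3 each). Its aged GW8510 libraries were all above the young ones, with a log2 fold change of 0.29 (edgeR adjusted p = 0.475). Ppp1r3a, the other phosphatase targeting subunit, named for striated muscle glycogen, had 0.50 with age and overlapping libraries. In this role group 4 of 5 genes had values above 0 with age and in aged GW8510 over young mice, and Ppp1r3c lay below 0 in both. Values below 0 were found for 48.9% and 48.7% of all genes in these comparisons.

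**Figure D2:**
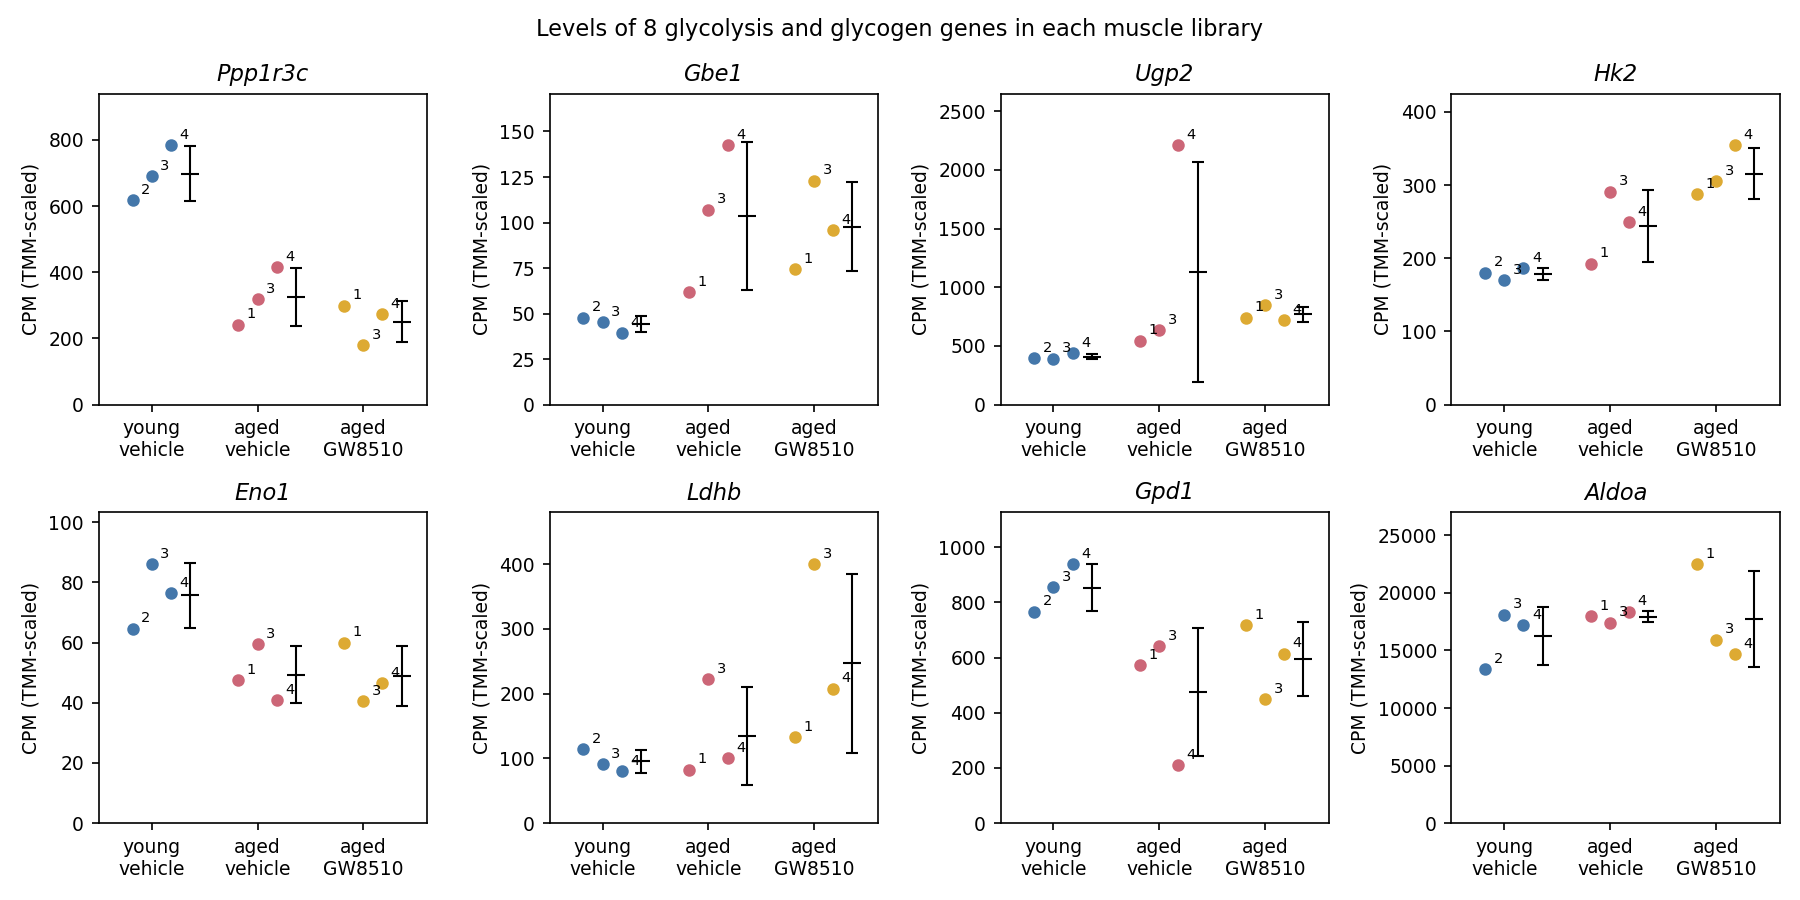
TMM-scaled CPM of 8 genes in each library (dots, numbered by library) with the group mean and SD (bars, n = 3 each). Ppp1r3c libraries of 18-month mice sit between 181 and 415 CPM, below the young ones at 618 to 783 CPM, and aged vehicle library 4 stands alone in Ugp2 and Gpd1.

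Among genes of glycogen breakdown, none of 7 passed in any comparison (edgeR). Pygm was at 6711, 7612 and 8034 CPM in young vehicle libraries 2, 3 and 4, at 6849, 6504 and 6160.0 CPM in aged vehicle libraries, and at 7980.3, 4880.3 and 6436 CPM in aged GW8510 libraries. The groups overlapped, and its log2 fold change with age was -0.20 (95% interval -0.69 to 0.29). Pgm2 had 3.76, 4.48 and 3.24 CPM in young vehicle libraries, 1.67, 2.54 and 1.08 CPM in aged vehicle libraries and 2.22, 4.34 and 1.91 CPM in aged GW8510 libraries. Its aged vehicle libraries were all below the young ones, with -1.11 on the log2 scale (SE 0.39, edgeR adjusted p = 0.181).

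Phkg1, the catalytic subunit of muscle phosphorylase kinase, had -0.67 with age and -0.51 in aged GW8510 over young mice, with libraries that did not overlap in either comparison. The regulatory subunits Phka1 and Phkb had -0.21 and 0.06 with age, and 0.06 and 0.12 without aged vehicle library 4. Pgm1, which interconverts glucose phosphates, had -0.35 and, without that library, -0.0095. Phkg1 then had -0.35. Gaa, the lysosomal enzyme that digests glycogen, was at 715 CPM in aged vehicle library 4 and 231 to 245 CPM in the other libraries of that group. The age difference of Gaa was 0.41 with library 4 and -0.33 without it. In aged GW8510 over young mice all 7 genes of the group had values below 0, from -0.51 to -0.08 with a median of -0.31, and in the age comparison 5 of 7 did. Of all genes, 48.7% and 48.9% did. None of the 7 had an unadjusted p under 0.05 in aged GW8510 over young mice (edgeR), and Phkb reached 0.06 when a library was left out. The genes share the same libraries, so these counts are a description.

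In entry and upper glycolysis, Hk2 encodes hexokinase 2, the main muscle form, and Hk1 the form found in most tissues. Hk2 was at 180.5, 170.1 and 186 CPM in young vehicle libraries, 193, 291 and 249 CPM in aged vehicle libraries and 288, 305 and 354 CPM in aged GW8510 libraries. All libraries of 18-month mice were above the young ones, and the aged groups overlapped by 1 library. The log2 fold change was 0.45 with age (SE 0.18, edgeR adjusted p = 0.212), 0.37 with the drug (SE 0.18, edgeR adjusted p = 0.934) and 0.82 in aged GW8510 over young mice (SE 0.18, edgeR adjusted p = 0.0667). None passed. Without aged vehicle library 4 the last of these was 0.81 and passed (edgeR adjusted p = 0.0323, leave-one-out range to 0.207).

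Hk1 was far lower, at 13.1, 11.0 and 10.6 CPM in young vehicle, 7.31, 10.3 and 5.80 CPM in aged vehicle and 9.76, 11.7 and 12.1 CPM in aged GW8510 libraries. Aged vehicle libraries lay below the young ones, with a log2 fold change of -0.57 (SE 0.22, edgeR adjusted p = 0.205). The drug difference was 0.52 (SE 0.22, edgeR adjusted p = 0.934), and 1 aged vehicle library overlapped the treated ones. The sum of the fibroblast markers, lowest in aged vehicle library 4, was also lower in aged than in young libraries. Not every marker followed the sum: Ly6a was at 31.9 to 57.4 CPM in young vehicle and 36.4 to 42.3 CPM in aged vehicle libraries. In aged GW8510 over young mice, where the sum was also lower, the Hk1 difference was -0.05. Endothelial markers summed to 329 to 413 CPM in young vehicle, 236 to 300 in aged vehicle and 253 to 449 in aged GW8510 libraries. Of these 7 markers, Flt1 and Esam overlapped between young and aged vehicle libraries. Macrophage and smooth muscle sums also overlapped between those groups. The part of fibroblast, endothelial or other non-muscle RNA in the Hk1 values was not tested.

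Aldoa was at 13364, 18111 and 17193 CPM in young vehicle libraries, 17954, 17429 and 18384 CPM in aged vehicle libraries and 22522, 15952 and 14706 CPM in aged GW8510 libraries. The groups overlapped, and the log2 fold change with age was 0.14 (95% interval -0.39 to 0.68). The second Aldoa locus lies next to the first on chromosome 7, from 126800790 to 126809108 on the same strand, and its values are uncertain because the counting could split reads between the pair. It was at 29.8 CPM in aged vehicle library 4 and at 124 to 326 CPM in the other 8. Pfkm, the muscle phosphofructokinase gene, had 0.07 with age and 0.02 with the drug, both with 95% intervals within 0.43 of 0. Gpi1, which isomerizes glucose-6-phosphate, and Tpi1, which interconverts the triose phosphates, had 0.09 and -0.35 with age, and -0.06 and -0.07 without aged vehicle library 4. Pfkl and Pfkp, the liver and platelet phosphofructokinases, had -0.23 and -0.49, and -0.10 and -0.35 without that library.

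Lower glycolysis had log2 fold changes below 0 in 7 of 7 genes with age, where 48.9% of all genes did, from -0.62 to -0.19 with a median of -0.44. None passed in edgeR. Without aged vehicle library 4 all 7 were still below 0, with a median of -0.25. These genes were measured in the same libraries, so the count is a description. Gapdh was at 3049, 3829.8 and 4092 CPM in young vehicle libraries, 3201, 3658 and 2748 CPM in aged vehicle libraries and 4001, 3614 and 2617 CPM in aged GW8510 libraries, and the groups overlapped. Its log2 fold change with age was -0.19 (95% interval -0.69 to 0.31), and -0.094 without aged vehicle library 4.

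Eno1, the enolase of most non-muscle cells, was at 64.7, 86.2 and 76.5 CPM in young vehicle libraries. Aged vehicle libraries had 47.6, 59.6 and 40.8 CPM and aged GW8510 libraries 60.0, 40.5 and 46.6 CPM. All libraries of 18-month mice were below the young ones. The log2 fold change was -0.62 with age (SE 0.20, edgeR adjusted p = 0.155) and -0.63 in aged GW8510 over young mice (SE 0.20, edgeR adjusted p = 0.158). Summed fibroblast markers were also lower in these groups. The part of fibroblast or other non-muscle RNA in the Eno1 values was not tested.

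The other members of lower glycolysis had values with age of -0.42 for Pgk1 (phosphoglycerate kinase), -0.44 for Pgam1 (the mutase of most tissues), -0.51 for Pgam2, -0.36 for Eno3 and -0.45 for Pkm (pyruvate kinase). These were, with aged vehicle library 4 left out, -0.25, -0.28, -0.27, -0.092 and -0.18. With the drug, 6 of the 7 genes had values above 0, and without aged vehicle library 4 only 1 did. The glycogen synthesis group turned likewise, from 0 of 5 genes above 0 to 4 of 5. The direction of both groups in the drug comparison therefore rested on this library. Pgam1 was the gene of the group with the smallest p there, at 0.55 (SE 0.24, edgeR adjusted p = 0.934), and 0.38 without library 4.

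**Figure D3:**
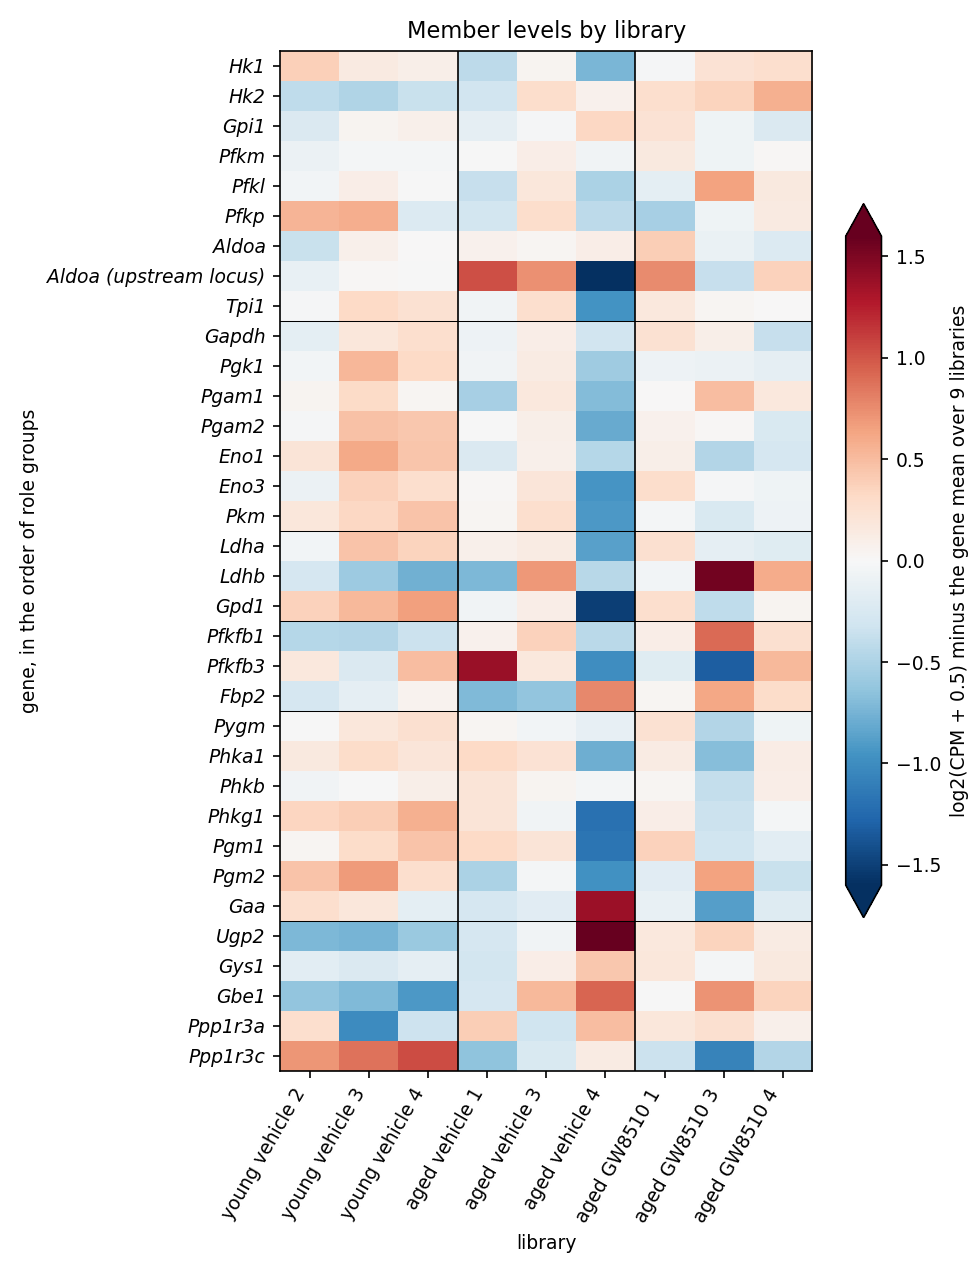
Level of each locus (rows, in role groups) in each library (columns), as log2(CPM + 0.5) minus the mean over the 9 libraries, with red above and blue below. Aged vehicle library 4 is the bluest column, lowest in 15 of 34 loci, yet highest in Ugp2, Gaa and Gbe1.

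For lactate and glycerol phosphate, Ldha encodes the lactate dehydrogenase subunit typical of fast muscle and Ldhb that of heart and slow muscle. Ldha was at 2591, 3668 and 3417 CPM in young vehicle, 2831, 2925 and 1463 CPM in aged vehicle and 3204, 2419 and 2341 CPM in aged GW8510 libraries, with overlap between all groups. Ldhb was at 114, 91.4 and 80.4 CPM in young vehicle, 82.8, 222 and 100.3 CPM in aged vehicle and 133, 400.3 and 208 CPM in aged GW8510 libraries. Treated libraries all lay above the young ones, with a log2 fold change of 1.37 (SE 0.45, edgeR adjusted p = 0.163). Without aged GW8510 library 3 it was 0.84.

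The 10 slow fibre markers summed to 949 to 1166 CPM in young vehicle, 1098 to 2069 in aged vehicle and 1108 to 2383 in aged GW8510 libraries. Mybpc1 made up most of this sum. It was highest at 2041 CPM in aged GW8510 library 3, then at 1992 CPM in aged vehicle library 4, where Ldhb was at 100.3 CPM. Myh7, the slow myosin heavy chain gene, was highest at 23.0 CPM in aged GW8510 library 3 and 13.8 CPM in aged vehicle library 3, the pair of libraries with the most Ldhb, and at 0.953 to 5.31 CPM in the other 7. Aged GW8510 library 4, with Ldhb at 208 CPM, had Myh7 at 1.78 CPM. The part of fibre makeup in the Ldhb values was not tested. Gpd1, the cytosolic glycerol-3-phosphate dehydrogenase gene, was at 767, 855 and 939.9 CPM in young vehicle, 574, 642 and 210.2 CPM in aged vehicle and 718, 451 and 614 CPM in aged GW8510 libraries. All libraries of 18-month mice were below the young ones, and the age difference was -0.85 (edgeR adjusted p = 0.241), or -0.49 without aged vehicle library 4.

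Regulators of fructose bisphosphate comprised 3 genes. Pfkfb1 encodes a bifunctional enzyme that makes and removes fructose-2,6-bisphosphate, the activator of phosphofructokinase. It was at 28.9, 28.5 and 31.2 CPM in young vehicle, 41.5, 51.3 and 29.3 CPM in aged vehicle and 42.9, 75.1 and 47.5 CPM in aged GW8510 libraries. Treated libraries all lay above the young ones, with 0.90 on the log2 scale (SE 0.25, edgeR adjusted p = 0.109), and aged vehicle libraries overlapped both groups. Without aged vehicle library 4 this difference passed (edgeR adjusted p = 0.0469, leave-one-out range to 0.348).

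Pfkfb3, an isoform of this enzyme that favours synthesis, varied widely within the aged groups. It was at 262, 199 and 329 CPM in young vehicle, 611, 264 and 117 CPM in aged vehicle and 205, 93.6 and 336 CPM in aged GW8510 libraries. Its log2 fold change with the drug was -0.64 with a 95% interval from -1.92 to 0.63, so either direction lies inside it. Fbp2, the muscle fructose bisphosphatase, had 0.10 with age and -0.58 without aged vehicle library 4, in which it was at 30.7 CPM against 10.7 and 11.2 CPM in the others.

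Isoform use was read from TPM as the share of the muscle form in each enzyme's sum, without a test. Hk2 made up 93.5% to 95.01% of Hk1 plus Hk2 in young vehicle libraries, 96.7% to 97.9% in aged vehicle and 96.6% to 97.4% in aged GW8510 libraries. Both aged groups lay above the young one, and they overlapped each other. Eno3 made up 97.9% to 98.2% of Eno1 plus Eno3 in young vehicle libraries and 98.6% to 99.0% in aged GW8510 libraries, while the aged vehicle libraries spread from 97.7% to 98.8%. Ldha made up 94.8% to 97.2% of Ldha plus Ldhb in young vehicle, 91.4% to 96.5% in aged vehicle and 83.0% to 95.2% in aged GW8510 libraries. The muscle forms Pfkm, Pgam2, Pygm and Gys1 held at least 98.8% of their enzyme's TPM in every library.

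**Figure D4:**
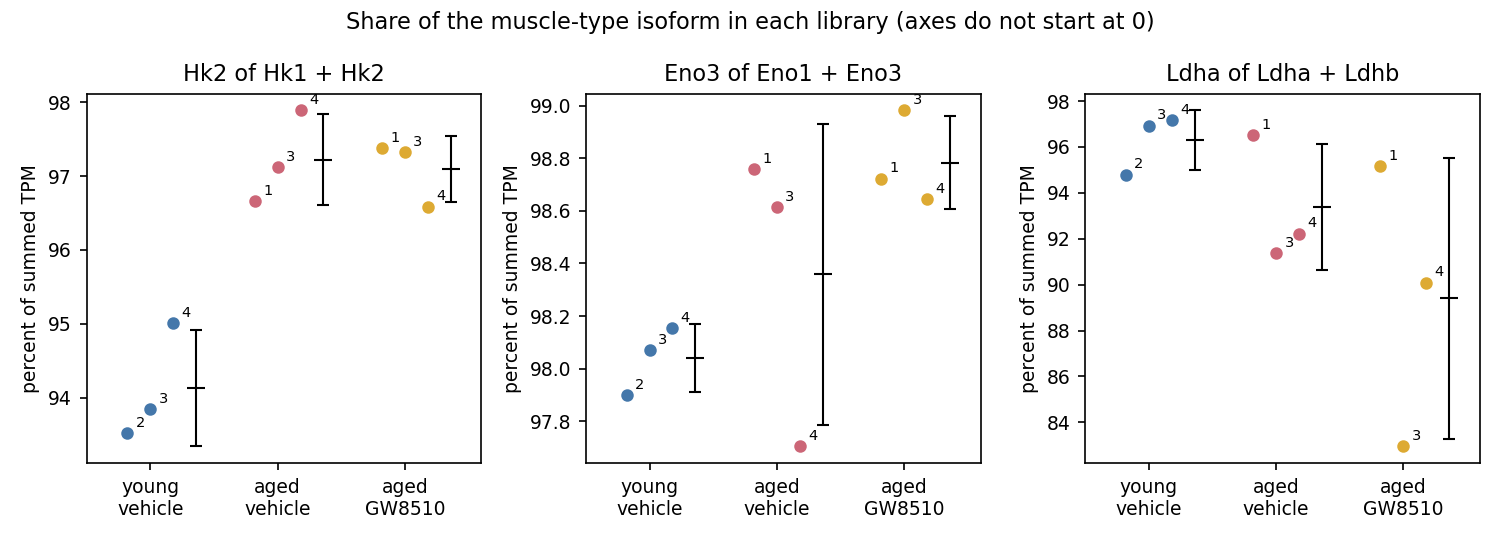
Share of the muscle-type isoform in the summed TPM of the enzyme's isoforms, in percent, for each library (dots, numbered by library) with mean and SD (bars, n = 3 each). The Hk2 share is 93.5% to 95.01% in young vehicle and 96.6% to 97.9% in the libraries of 18-month mice, and the Ldha share is lowest, 83.0%, in aged GW8510 library 3.

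Beyond the members, 47 other genes of glucose transport, lactate export, glycogen handling and their regulators were found, of which 41 passed the filter. None passed in any of the 3 comparisons (edgeR), and 7, 2 and 6 of them had an unadjusted p under 0.05 with age, with the drug and in aged GW8510 over young mice, which is 17.1%, 4.88% and 14.6% against 19.2%, 4.5% and 16.7% of all genes. limma-voom called none of them, and DESeq2 called Mlxip and Slc16a3 with age and in aged GW8510 over young mice and none with the drug. Over all 14384 genes DESeq2 called 974 with age, 870 in aged GW8510 over young mice and 10 with the drug. With age the smallest p-values were those of Mlxip (MondoA, a glucose-sensing factor) at -0.68, Slc16a3 (the lactate exporter MCT4) at -0.87, Ppp1r3b (a phosphatase targeting subunit) at -1.42 and Mlxipl (ChREBP) at -0.41, with edgeR adjusted p from 0.0901 to 0.167.

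In aged GW8510 over young mice they included Mlxip at -0.82, Slc16a3 at -1.04 and Mlxipl at -0.37, with edgeR adjusted p from 0.0665 to 0.215. Slc16a3 was at 321, 373 and 431 CPM in young vehicle, 209.8, 275 and 132 CPM in aged vehicle and 217, 153 and 177 CPM in aged GW8510 libraries, so all libraries of 18-month mice were below the young ones. With the drug the smallest included Stbd1 (a glycogen-binding protein) at -0.70 and Pfkfb4 at -0.36, both with an edgeR adjusted p of 0.934.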

How the data were processed

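The 9 muscle RNA-seq libraries fall into 3 groups of 3. The authors deposited, per the file headers, a table for each pair of groups with expected counts per gene and library (91.4% whole numbers), TPM values, log2 ratios and p-values, the last given as adjusted p-values with a significance mark. The submitters' processing notes name GRCm38, CASAVA, HISAT2, StringTie, RSEM, DESeq2 and edgeR, without versions or roles. The annotation and the use of strand are not given in the sources used here. GENCODE M21, which holds each of the 55536 gene IDs, gave the coordinates.

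Expected counts were rounded. Genes were kept by edgeR's filterByExpr and scaled by TMM. Groups were compared in R 4.3.3 by the two-sided quasi-likelihood test of edgeR 4.0.16. A single model with a mean for each group held the 9 libraries. P-values were adjusted by Benjamini-Hochberg over the 14384 genes tested, and the threshold was 0.05. The standard error was the size of the log2 fold change divided by the root of its F value. Levels are TMM-scaled CPM; genes were compared with each other by TPM. limma 3.58.1 (voom) and DESeq2 1.42.0 served as alternatives. The script was tested on simulated data. A floor of 3 counts was at most 0.136 CPM in a library and covers counting error only.

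Every member is named. Values in every library are given for members past the threshold, for those among the 6 smallest p in a comparison whose libraries did not overlap, and for the member with the highest TPM in each role group; Gpd1 and Slc16a3 were added after their values were seen. Of the wider list, the 4 smallest p in each comparison are named, except for genes not reported here. The members and lists were chosen with earlier results of these data known. Sequences come from RefSeq (GRCm38.p6).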

Additional observations from a re-analysis of the deposited data

How the results depend on the processing

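Ppp1r3c, the member that passed, had a negative log2 fold change in all 18 alternatives of each comparison. With age, the 0 members past the threshold became 3 with DESeq2 or no filter on low counts, and 0 to 1 when a library was left out (1 without aged vehicle library 1 or 4). In aged GW8510 over young mice the 1 member became 5 with DESeq2 or no filter, 4 with only the 6 libraries compared and 0 to 5 when a library was left out (5 without aged vehicle library 4, 0 without any young vehicle or aged GW8510 library). With the drug it stayed at 0 in every alternative. Genes past the threshold with age numbered 175, against 974 with DESeq2, 699 without the filter, 50 with only the 6 libraries and 19 to 148 when a library was left out. With the drug they numbered 0, against 10 with DESeq2, 5 without the filter and 0 to 2 when a library was left out. In aged GW8510 over young mice they numbered 108, against 870, 553, 469 and 25 to 594. Leaving out a library moved the median log2 fold change of the members to between -0.32 and -0.093 with age, between -0.045 and 0.19 with the drug and between -0.23 and -0.062 in aged GW8510 over young mice.

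Replicate numbers gave no sign of pairing: deviations of same-numbered libraries correlated between -0.209 and 0.138, and those of differently numbered ones between -0.229 and 0.271. With 3 libraries a group, these values cannot exclude a pairing or a shared batch. With the replicate block, genes past the threshold numbered 5 with age, 0 with the drug and 8 in aged GW8510 over young mice. Members past the threshold were then 0 in each, and the median of the members in aged GW8510 over young mice was -0.24; Ppp1r3c had an edgeR adjusted p of 0.164 there. The cause of these differences was not tested. Counts of pseudogenes came to at most 3.46% of a member's counts (Pgam1), and adding them, or summing both Aldoa loci (an alternative chosen after seeing the data), left each count of members as it was. Scaling moved the median of all genes by at most 0.0252 log2 units. With 3 libraries a group, the 95% interval reached past 1 log2 unit for 20, 11 and 18 of the 34 loci in the 3 comparisons.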

Other observations

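The authors' deposited table for young against aged vehicle mice marks Gbe1, Ppp1r3c and Ugp2 among the members as significant, and of the wider list Pygl, the liver glycogen phosphorylase gene. The authors' deposited table for young against GW8510 mice marks Gbe1, Ldhb and Ppp1r3c, and, among the wider list, Slc16a3. The authors' deposited table for the drug marks none of them. In the edgeR fit used here, of these genes only Ppp1r3c in aged GW8510 over young mice passed. The mark is not a threshold of 0.05 on the adjusted p alone: the authors' deposited table for young against GW8510 mice gives Ugp2 1.09e-07, Hk2 6.35e-06, Pfkfb1 0.00243, Eno1 0.0319 and Phkg1 0.0400 without the mark. Their log2 ratios there are, in that order, 0.91, 0.82, 0.91, -0.63 and -0.51. Among the marked genes named, the log2 ratio smallest in size is -1.04 (Slc16a3).

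Slc2a4, the insulin-responsive glucose transporter gene of muscle, was at 504 ± 35.5 CPM in young vehicle, 555 ± 15.8 in aged vehicle and 568 ± 57.4 in aged GW8510 libraries (SD, n = 3 each). Its log2 fold change was 0.14 with age and 0.03 with the drug, and neither passed. It was chosen after its values were seen.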
